A study of Mus musculus with 27 samples.

Results

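Transcripts of 9 genes that mark B cells and plasma cells were followed in the livers of 28-month-old mice: Cd22, Cd79a, Cd79b, Ms4a1, Blk, Pou2af1, Mzb1, Jchain and Tnfrsf17. The members were taken by gene symbol, as 9 of 18820 genes that the array measured with a single-symbol transcript cluster, and each of the 9 had exactly 1 such cluster. Livers came from 27 male C57BL/6J mice, with 1 array of total RNA per mouse. Diets started at 9 weeks of age: the C diet group (8 mice) ate the AIN-93W control diet ad libitum, the CR diet group (5 mice) received daily portions of the AIN-93W-CR diet with 70% of the mean energy intake of the C mice, and the MF diet group (7 mice) ate the medium-fat AIN-93W-MF diet (25% of energy as fat) ad libitum. The CR-MF diet group (7 mice) was kept on CR until 24 months of age and was then moved to the MF diet for the last 4 months, with portions raised stepwise until feeding was ad libitum. Every mouse was fasted, given carboxymethyl cellulose by gavage and fasted again before sampling, and the CR mice were given part of their daily portion before the first fast. Mice are named here by diet group and by the animal number in their identifier, such as MF mouse 11. The comparisons ask how lifelong restriction, a lifelong medium-fat diet and a late switch between them left the B-lineage transcripts of the old liver, and how far single mice set the mean of a diet group.

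B cells recognise antigen through a receptor made of surface immunoglobulin and a signalling pair, Cd79a and Cd79b, and the kinase Blk acts early downstream of it. Ms4a1 encodes the B cell surface protein CD20, and Cd22 encodes a sialic acid-binding receptor that dampens B cell receptor signalling. Pou2af1 encodes a coactivator of octamer-binding transcription factors. When a B cell becomes a plasma cell it loses much of this surface machinery and turns to secretion: Jchain joins the units of IgM and IgA polymers, Mzb1 is an endoplasmic reticulum chaperone of antibody-secreting cells, and Tnfrsf17 (BCMA) is a survival receptor of plasma cells. In the liver, B-lineage cells are a minority beside hepatocytes and Kupffer cells, and in aged animals lymphocytes can gather in follicle-like aggregates.

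The promoters of 4 members are shown because these genes either varied together from mouse to mouse (Cd79a, Cd22 and Pou2af1) or did not follow the others (Jchain). A RefSeq promoter table on build GRCm38.p6 held 5 of the 9 members. For each gene the 250 bases before the annotated start are given 5′ to 3′ on the strand of the gene, at chr7:24897247-24897496 (plus strand) for Cd79a, chr7:30879029-30879278 (minus strand) for Cd22, chr9:51213440-51213689 (plus strand) for Pou2af1 and chr5:88527898-88528147 (minus strand) for Jchain. The Cd22 window lies inside the annotated span of the gene (chr7:30865404-30880342), so the start used for Cd22 is an inner one. Capitals mark the matches to 3 motifs of B-lineage transcription factors searched on both strands.
Cd79a: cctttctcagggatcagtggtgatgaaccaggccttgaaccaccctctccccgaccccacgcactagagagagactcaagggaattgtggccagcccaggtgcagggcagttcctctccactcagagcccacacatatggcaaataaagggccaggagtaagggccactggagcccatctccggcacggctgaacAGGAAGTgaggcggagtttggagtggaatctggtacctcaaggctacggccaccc
Cd22: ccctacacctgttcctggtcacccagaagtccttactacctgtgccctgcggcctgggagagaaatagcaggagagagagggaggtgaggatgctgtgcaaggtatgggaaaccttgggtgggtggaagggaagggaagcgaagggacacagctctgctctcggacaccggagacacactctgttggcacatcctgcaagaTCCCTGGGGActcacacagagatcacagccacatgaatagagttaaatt
Pou2af1: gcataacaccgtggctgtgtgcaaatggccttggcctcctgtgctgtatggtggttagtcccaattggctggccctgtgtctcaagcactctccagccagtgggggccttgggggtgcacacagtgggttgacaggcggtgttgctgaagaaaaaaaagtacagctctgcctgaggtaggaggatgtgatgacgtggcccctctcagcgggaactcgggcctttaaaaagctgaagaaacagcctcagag
Jchain: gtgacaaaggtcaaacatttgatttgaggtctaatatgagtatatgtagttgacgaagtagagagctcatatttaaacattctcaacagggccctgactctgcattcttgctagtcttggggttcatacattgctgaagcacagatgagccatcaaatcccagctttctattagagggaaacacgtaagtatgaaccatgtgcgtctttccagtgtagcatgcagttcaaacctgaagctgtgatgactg
In Cd79a the capitals are the PU.1 motif AGGAAGT, whose first base lies at position -55 from the start, and 7.69% of 32851 promoters in the table held that motif in a window of the same length. In Cd22 the capitals are an EBF1 motif (arms TCCC and GGGA around 2 free bases, here TCCCTGGGGA) at position -49 from the inner start. That motif was held by 0.779% of the promoters. The octamer ATGCAAAT, held by 1.60% of the promoters, was not in the windows of these genes or of Tnfrsf17. A match is a description of letters, and none of the motifs overlapped another.

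Values are log2 intensities after robust multiarray averaging (RMA), so a difference of 1 is a change of 2-fold, and levels of different genes are not set against each other. Array medians lay between 5.38 and 5.48. Hepatocyte markers were high throughout, with the mean of the 3 that passed the filter between 12.88 and 13.24 in every mouse. A gene was tested when its intensity was above 20 (log2 4.32) on at least 5 arrays and its interquartile range above 0.1, and 13993 genes passed, among them 8 of the 9 members. Tnfrsf17 did not pass. The labels name separate mice, so the spread between arrays is a spread between animals. The array names hold codes that are read here as plate and well row, which the labels do not explain. On that reading 6 C, 3 CR, 5 CR-MF and 5 MF mice were on plate G150. Plates G151 and G152 each held 1 mouse of each group. All 7 CR-MF mice, and no other mouse, sat in well row H, so that row and the diet switch cannot be told apart. All 8 C mice and 3 CR mice sat in row F, and all 7 MF mice and 2 CR mice in row G. Row and diet therefore cannot be told apart in MF against C. They are partly mixed in CR against C and in MF against CR. In whole liver, fewer cells of a type and less RNA per cell cannot be told apart.

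No member was called in any of the 6 comparisons, and 1 mouse moved the MF means by 0.35 to 0.63 on the log2 scale. The 6 genes of B cells (Cd79a, Cd79b, Ms4a1, Cd22, Blk and Pou2af1) had their lowest mean and their lowest median in the CR diet group, whereas Mzb1 and Jchain did not. MF mouse 11 had the highest MF value at 8 of the 8 members tested, 5.55- to 20.8-fold above the mean of the other 6 MF mice, and C mouse 9 had the highest C value at all 8, 2.11- to 6.53-fold above the mean of the other 7 C mice. Without those 2 mice the members differed between CR-MF and MF by a median of 0.037 on the log2 scale, in place of -0.43.

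The receptor pair came first. Cd79a was 5.23, 5.0, 5.88, 5.16 and 5.82 in CR mice 1, 3, 5, 7 and 13. It ran from 5.50 over a median of 5.94 to 8.11 (C mouse 9) in the C diet group, from 4.85 over 5.63 to 6.41 in the CR-MF diet group and from 5.17 over 5.69 to 9.51 (MF mouse 11) in the MF diet group. All 4 groups overlapped, and the next highest C and MF mice were at 7.03 and 5.81. Cd79b was 5.82, 6.27, 7.04, 6.37 and 6.15 in the same 5 CR mice. It ran from 6.42 over 7.60 to 8.91 in C mice, from 6.17 over 7.00 to 7.88 in CR-MF mice and from 6.43 over 7.06 to 10.50 in MF mice. Of all members, Cd79b was the one at which C mouse 9 stood out least, since the next C mouse reached 8.74. In order of medians both genes ran CR, CR-MF, MF and C, from lowest to highest.

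Ms4a1 was the member with the widest range. In CR mice 1, 3, 5, 7 and 13 it was 4.41, 4.92, 5.25, 4.24 and 4.79, so that 1 CR mouse was below the intensity minimum. It ran from 4.91 over 5.76 to 7.94 in C mice, from 4.71 over 5.26 to 5.92 in CR-MF mice and from 5.06 over 5.31 to 9.66 in MF mice. The highest value belonged to MF mouse 11, and the next MF mouse was at 5.64. Cd22 was 5.34, 5.65, 6.18, 5.50 and 5.62 in the CR mice. Its range was 5.61 to 7.89 in C mice (median 6.30), 5.62 to 6.53 in CR-MF mice (median 6.17) and 5.99 to 9.49 in MF mice (median 6.08). The other 6 MF mice lay between 5.99 and 6.19, whereas with all 7 mice the MF diet group had the widest spread of this gene (SD 1.29).

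Blk, the kinase, was near the intensity minimum in several livers. It was 4.67, 4.14, 4.98, 4.44 and 4.34 in CR mice 1, 3, 5, 7 and 13, against 4.48 to 6.05 (median 5.01) in C, 4.56 to 5.22 (median 4.95) in CR-MF and 4.49 to 7.79 (median 4.86) in MF mice. Pou2af1 was 5.22, 4.65, 5.38, 5.12 and 4.87 in those CR mice, against 4.80 to 6.85 (median 5.37) in C, 4.86 to 5.88 (median 5.40) in CR-MF and 5.17 to 9.41 (median 5.36) in MF mice. By medians the C, CR-MF and MF levels of Pou2af1 differed by at most a few hundredths, and its CR values overlapped with all of them.

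The genes of antibody secretion had another order. Jchain was 7.29, 7.15, 6.51, 7.11 and 6.41 in CR mice 1, 3, 5, 7 and 13. It ran from 5.65 over 6.54 to 9.18 in C mice, from 6.09 over 7.05 to 7.72 in CR-MF mice and from 6.19 over 6.46 to 8.93 in MF mice. Here the CR median was the highest of the 4, and the highest liver of the series was C mouse 9. Mzb1 was 5.15, 5.59, 5.27, 5.32 and 5.41 in the CR mice, 4.85 to 6.66 (median 5.19) in C, 4.98 to 5.71 (median 5.16) in CR-MF and 5.09 to 7.83 (median 5.30) in MF mice. Apart from MF mouse 11 and C mouse 9, no Mzb1 value was above 5.71. Tnfrsf17 was above log2 4.32 on 3 of the 27 arrays, at 4.35 in C mouse 9, 4.47 in CR mouse 7 and 4.33 in CR-MF mouse 5. In MF mouse 11 it was 3.90, below the median of 3.93 in its group.

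**Figure D1:**
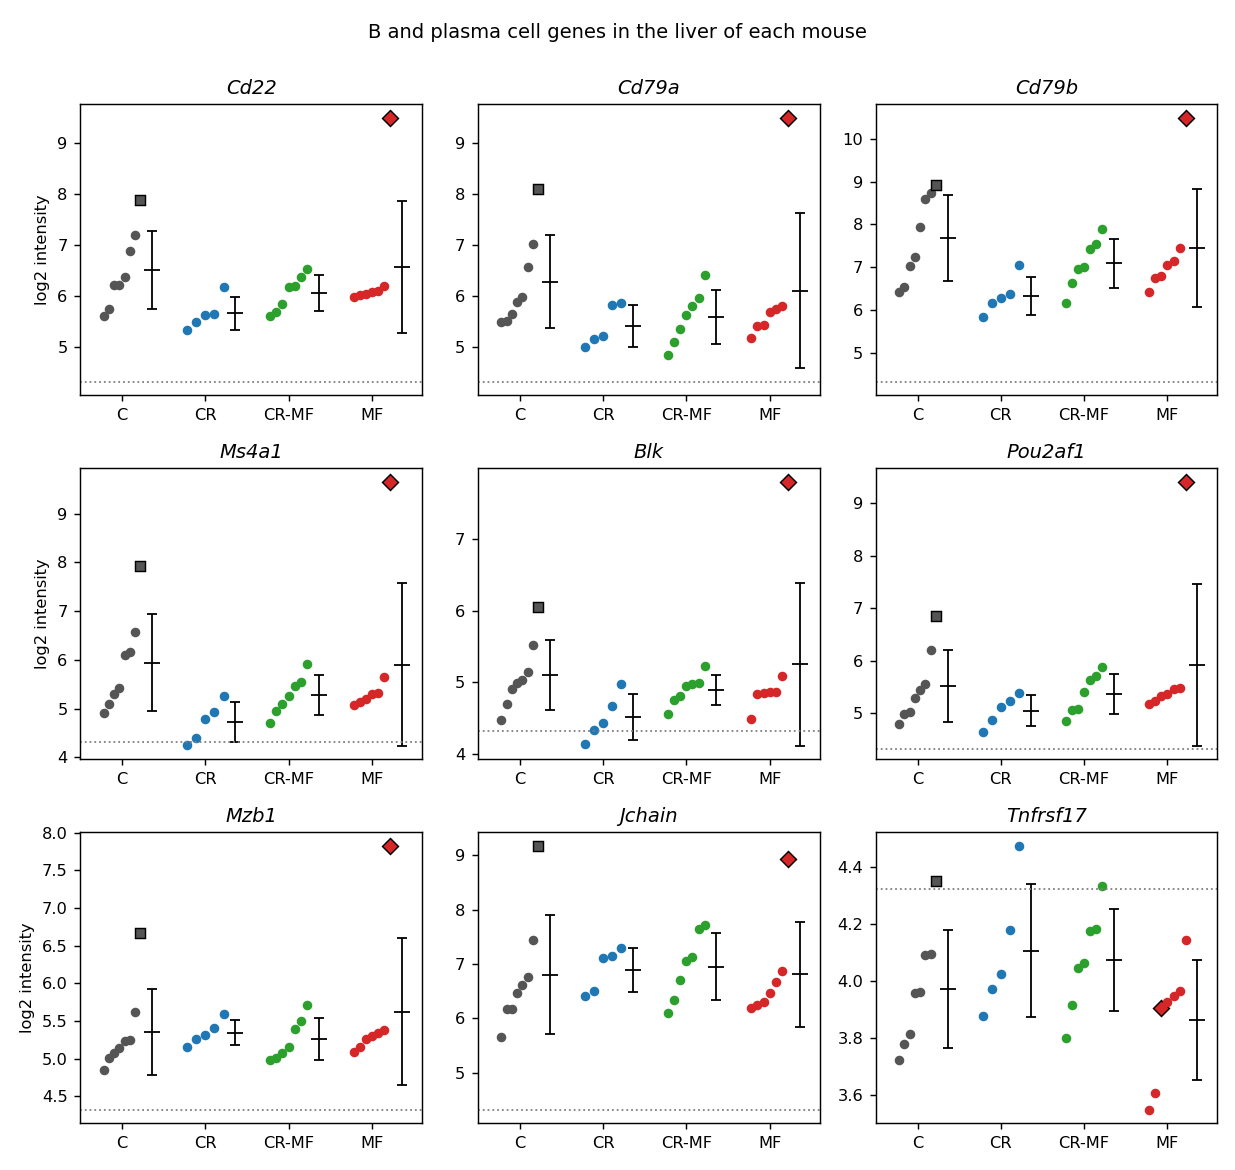
Log2 intensity of the 9 genes in each of 27 livers by diet group, with 1 point per mouse. Black bars give the group mean and SD, the dotted line is the intensity minimum (log2 4.32), the diamond is MF mouse 11 and the square is C mouse 9. Both marked mice stand above their groups at the 8 tested genes, and Tnfrsf17 lies mostly below the minimum.

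MF was compared with CR to ask what separates the lifelong diets. The B cell genes had higher means in MF, by 0.69 to 1.18 on the log2 scale, and the secretory genes Mzb1 and Jchain differed by 0.28 and -0.083. None of the 8 members was called at a limma adjusted p under 0.05, where 5.42% of all tested genes were called. Ms4a1 differed by 1.18 ± 0.57 (SE, adjusted p = 0.208) and Cd79b by 1.11 ± 0.53 (adjusted p = 0.198). Of the 8 members past the filter, these were the 2 with an unadjusted p under 0.05. That mark was passed by 23.7% of all tested genes, and by 12.5% in the higher direction. Cd22 differed by 0.90 ± 0.45 (adjusted p = 0.217), Pou2af1 by 0.88 ± 0.49 (adjusted p = 0.282), Blk by 0.74 ± 0.36 (adjusted p = 0.214) and Cd79a by 0.69 ± 0.53 (adjusted p = 0.446). For no member did the groups stay apart, against 3.79% of all tested genes. The median difference of the 8 members was 0.81, and that of all tested genes was -0.0068. Without MF mouse 11 and C mouse 9 none of the members was called, beside 3.54% of all tested genes, and 1 (Ms4a1) had an unadjusted p under 0.05, beside 20.5%. The median of the members was then 0.31, Ms4a1 differed by 0.55 ± 0.25 (adjusted p = 0.215) and Cd79a by 0.13 ± 0.27 (adjusted p = 0.830). That setting was chosen after the values were seen. Within plates, MF minus CR of Ms4a1 was 1.50 on G150, which holds MF mouse 11, 0.51 on G151 and 0.40 on G152, the last 2 from 1 mouse a group.

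CR was compared with C to ask what restriction leaves different from ad libitum control feeding. The 6 B cell genes had lower means in CR, by 0.47 to 1.34 on the log2 scale. None of the 8 members was called, and 1.57% of all tested genes were. Cd79b was lower by 1.34 ± 0.51 (SE, adjusted p = 0.144), with 4 of 5 CR mice below every C mouse. Ms4a1 was lower by 1.22 ± 0.56 (adjusted p = 0.221), with 3 of 5 CR mice below every C mouse. Both had an unadjusted p under 0.05, a mark passed by 19.8% of all tested genes and by 10.5% in the lower direction. Cd22 and Cd79a were lower by 0.86 ± 0.43 (adjusted p = 0.271) and 0.87 ± 0.52 (adjusted p = 0.360), Blk by 0.59 ± 0.35 (adjusted p = 0.363) and Pou2af1 by 0.47 ± 0.48 (adjusted p = 0.627). Mzb1 differed by -0.0100 ± 0.33 and Jchain by 0.087 ± 0.45. The groups of no member stayed apart, against 2.02% of all tested genes. The median difference of the members was -0.72 with all mice and -0.53 without MF mouse 11 and C mouse 9, beside 0.016 for all tested genes.

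Leaving out those 2 mice narrowed the intervals more than it moved the CR to C differences. Ms4a1 was then lower by 0.93 ± 0.25 (adjusted p = 0.0524), Cd79b by 1.17 ± 0.35 (adjusted p = 0.0826), Cd22 by 0.66 ± 0.21 (adjusted p = 0.0961) and Blk by 0.45 ± 0.15 (adjusted p = 0.111). None was called, beside 1.54% of all tested genes, and 5 of 8 members had an unadjusted p under 0.05, beside 19.2% of all tested genes. The 2 mice were picked for their high values at these members, so the smaller spread is in part set by that choice. Other genes were not trimmed of their own highest mice, so the share over all genes is not a like comparison. With array weights, which give less weight to arrays far from their group, Cd79b alone was called (-1.42, adjusted p = 0.0449). Under that setting 1077 of all 13993 tested genes were called, against 220 in the main fit. Within plates, CR minus C of Cd79b was -1.26 on G150, -2.76 on G151, where the C mouse is C mouse 9, and -0.15 on G152.

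CR-MF was compared with CR to follow the switch. None of the 8 members was called, beside 0.6% of all tested genes, none had an unadjusted p under 0.05, beside 12.3%, and the groups of none stayed apart, beside 1.2%. The differences ran from 0.17 ± 0.53 for Cd79a to 0.75 ± 0.53 for Cd79b among the B cell genes, with 0.55 ± 0.57 for Ms4a1 (adjusted p = 0.740), and were -0.085 ± 0.34 for Mzb1 and 0.059 ± 0.47 for Jchain. Neither of the 2 high mice belongs to these groups, so leaving them out changed only the shared estimate of spread. The mice were picked at these members, so a smaller spread of the members is in part set by that choice. Blk (0.38 ± 0.15), Ms4a1 (0.55 ± 0.25) and Cd79b (0.75 ± 0.35) then had unadjusted p-values of 0.0177, 0.0332 and 0.0417 and adjusted p-values of 0.259 to 0.368, beside 12.8% of all tested genes with an unadjusted p under 0.05.

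The 3 other comparisons gave no call either, beside 1.44% of all tested genes called for CR-MF against MF, 0.0% for MF against C and 0.3% for CR-MF against C. No member had an unadjusted p under 0.05, beside 14.8% of all tested genes for CR-MF against MF (7.99% lower), 3.97% for MF against C (2.67% higher) and 11.4% for CR-MF against C (5.9% lower). The groups of no member stayed apart, beside 0.65%, 0.0286% and 0.286%. CR-MF minus MF ran from -0.63 (Ms4a1) to 0.14 (Jchain), with 95% intervals of -1.70 to 0.44 and -0.73 to 1.02. Without MF mouse 11 and C mouse 9, Ms4a1 differed by -0.00091 ± 0.23 between CR-MF and MF. No member then had an unadjusted p under 0.05 in these 3 comparisons, beside 13.3%, 4.57% and 11% of all tested genes. MF minus C ran from -0.23 (Cd79b) to 0.40 (Pou2af1), and CR-MF minus C from -0.69 (Cd79a) to 0.15 (Jchain). In each of these 3 comparisons the 95% intervals reach a difference of 2-fold for Cd79a, Cd79b, Ms4a1 and Pou2af1, so groups with no call are not shown to be alike. Tnfrsf17, from the fit without the filter, was not called in any comparison. Its largest difference was -0.24 on the log2 scale, in MF minus CR (limma unadjusted p = 0.0495, adjusted p = 0.255). Most of its values lie below the intensity minimum.

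**Figure D2:**
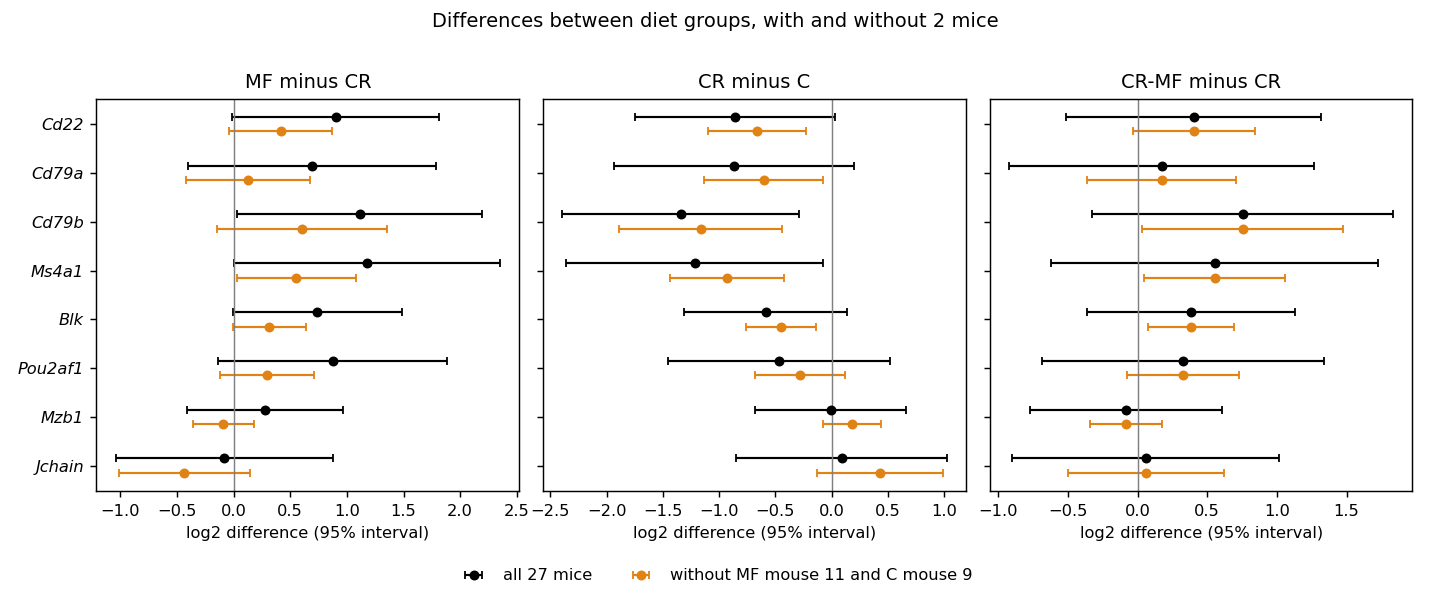
Log2 differences of the 8 tested genes with 95% intervals for MF minus CR, CR minus C and CR-MF minus CR, from limma. Black points are from all 27 mice and orange points leave out MF mouse 11 and C mouse 9. For MF minus CR the points of the 6 B cell genes move towards 0 when the 2 mice are left out, Mzb1 crosses 0 and Jchain moves further below it, and for CR-MF minus CR only the intervals change.

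The size of the single-mouse effect was read from group means. With MF mouse 11 the MF mean of Ms4a1 was 5.90 ± 1.67 (SD, n = 7), and without it 5.28 ± 0.20 (n = 6), so 1 mouse moved the mean by 0.63 and made up most of the spread. For Pou2af1 the values were 5.92 ± 1.54 and 5.34 ± 0.12, and for Cd22 6.56 ± 1.29 and 6.07 ± 0.07. The same mouse moved the MF mean of Cd79a by 0.57, of Cd79b by 0.51, of Blk by 0.42, of Mzb1 by 0.37 and of Jchain by 0.35. Its fold over the mean of the other MF mice was 20.8 for Ms4a1, 16.7 for Pou2af1, 15.6 for Cd79a, 11.8 for Cd79b, 10.7 for Cd22 and 7.80 for Blk, and 5.96 and 5.55 for Mzb1 and Jchain. Single-mouse effects in the MF group were thus larger for the genes of B cells than for the genes of antibody secretion.

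C mouse 9 had another profile. Its largest fold over the other C mice was that of Jchain (6.53), followed by Ms4a1 (4.86), Cd79a (4.26), Cd22 (2.96), Pou2af1 (2.86), Mzb1 (2.82), Cd79b (2.67) and Blk (2.11). The C mean of Jchain was 6.81 ± 1.09 (SD, n = 8) with it and 6.47 ± 0.56 (n = 7) without it. For Cd79b the mouse that moved the C mean most was C mouse 1, the lowest, and the mean without it was 7.85 in place of 7.67. The title of C mouse 9 carries a suffix that no other mouse has, which the labels do not explain. In the other groups the highest mouse was most often CR mouse 5 (6 of 8 members) and CR-MF mouse 15 (6 of 8). Over all tested genes these 2 mice were the highest of their groups at 26.9% and 16.3%. Their shifts were smaller: CR mouse 5 moved the CR mean by 0.115 to 0.177 where it was the most influential mouse.

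Over all 13993 tested genes, MF mouse 11 was the highest MF mouse at 15.4% and more than 1 log2 unit above the next at 1.54%, and at 8 of 8 members on both counts. C mouse 9 was the highest C mouse at 13.5% of all tested genes and more than 1 unit above the next at 0.257%, and at 8 and 4 of 8 members. The gap of MF mouse 11 to the next MF mouse at Ms4a1, 4.02, ranked first among all tested genes, and that at Pou2af1, 3.92, second. Mice of each group differed in other cell markers as well. In MF mouse 11, 19 of 19 B cell receptor partners, surface receptors and signalling genes were the highest of the group, with a median deviation of 2.10 from the mean of the other mice. The same held for 9 of 9 B cell transcription factors (2.06), among them Pax5 (3.76) and Spib (3.86), for 13 of 16 immunoglobulin genes (2.26) and for 8 of 9 lymphoid attractants and survival factors (1.59), among them Cxcl13 (2.01), the chemokine that draws B cells to follicles. Plasma cell genes were less shifted, with 6 of 11 the highest and a median of 0.19: Irf4 deviated by 1.91 and Sdc1 by -0.37.

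Markers of other leukocytes moved with the B cell genes in MF mouse 11. Of the T cell markers 9 of 11 were the highest of the group (median deviation 1.23), of the NK and cytotoxic cell markers 5 of 7 (1.41), of the leukocyte markers 7 of 7 (1.73) and of the MHC class II genes 7 of 7 (1.63). Kupffer cell markers (0 of 8, median -0.23), neutrophil markers (0 of 7, -0.57), erythroid and platelet markers (0 of 5, -1.40), hepatocyte markers (0 of 3, -0.066) and pancreas acinar markers (0 of 2, -0.12) were not. Recruited macrophage markers (1 of 6, -0.10), dendritic cell markers (2 of 5, -0.038), plasmacytoid dendritic cell markers (2 of 5, 0.13) and germinal centre genes (2 of 4, 0.79) were in between. In C mouse 9, 12 of 19 receptor and signalling genes, 6 of 9 transcription factors, 5 of 16 immunoglobulin genes and 7 of 11 T cell markers were the highest, with medians of 0.85, 0.58, 1.19 and 0.72. Recruited macrophage markers (3 of 6, median 0.71) and leukocyte markers (3 of 7, 0.56) were in part the highest there too, and Kupffer cell markers (0 of 8, -0.023) were not. The part of the other cell types in the B cell values was not tested.

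**Figure D3:**
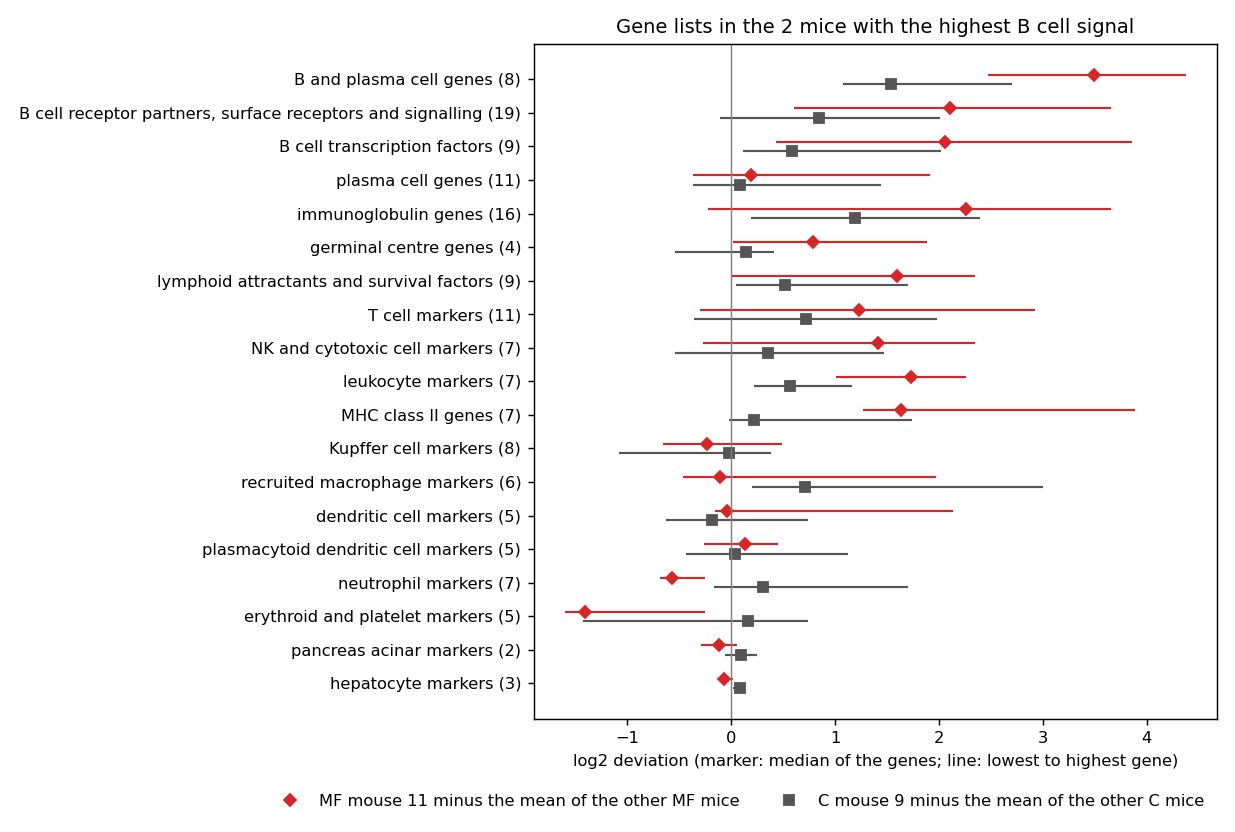
Log2 deviation of MF mouse 11 (diamonds) from the mean of the other MF mice and of C mouse 9 (squares) from the mean of the other C mice, by gene list, with the number of tested genes in parentheses. Markers are medians over the genes and lines run from the lowest to the highest gene. The B and plasma cell genes have the highest median in both mice (3.49 and 1.54). Both mice were picked for their high values at these genes, so that lead is in part set by the choice.

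The members fell into 2 patterns across mice. Over 27 mice the Pearson correlations between the 6 B cell genes were 0.846 to 0.971 (15 pairs, Spearman 0.642 to 0.905), and without MF mouse 11 and C mouse 9 they were still 0.652 to 0.933 over 25 mice. Jchain correlated with those 6 genes at 0.588 to 0.708 over 27 mice and at -0.028 to 0.243 over 25. Mzb1 did so at 0.737 to 0.870 and at -0.078 to 0.225. The correlation between Jchain and Mzb1 was 0.806 over 27 mice and 0.538 over 25. Tnfrsf17 correlated with the other members at -0.085 to 0.320. All points share 1 normalization and 4 diet groups, and these values are descriptions.

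The distance between Jchain and Ms4a1 within a mouse, chosen after the values were seen, gives the same contrast in 1 number. Jchain minus Ms4a1 was 2.89, 2.22, 1.26, 2.86 and 1.62 in CR mice 1, 3, 5, 7 and 13. It ran from 0.035 over a median of 0.96 to 1.27 in C mice, from 0.84 over 1.62 to 2.63 in CR-MF mice and from -0.73 over 1.11 to 1.61 in MF mice. MF mouse 11 had the lowest value, whereas C mouse 9, at 1.24, was inside the range of its group. Ms4a1 was below the intensity minimum in CR mouse 7 (4.24) and close to it in CR mouse 1 (4.41), so the size of the largest differences is uncertain. Only differences between mice carry meaning here, since the probes of the 2 genes are not on a common scale.

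**Figure D4:**
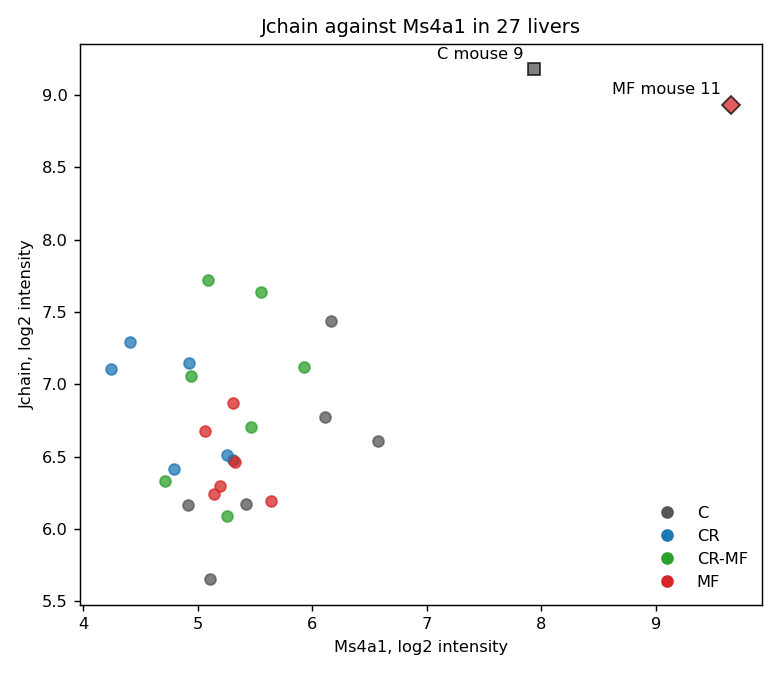
Log2 intensity of Jchain against that of Ms4a1 in 27 livers, with 1 point per mouse coloured by diet group. MF mouse 11 (9.66 for Ms4a1) and C mouse 9 (9.18 for Jchain) lie apart from the other 25 livers, in which the 2 genes show little relation.

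The genes whose values most resembled the mean of the members over the 27 mice were H2-Ob, Fcmr, Pax5, Spib, Ikzf3, B3gnt5, Map4k1, H2-Eb2, Cacna1e and Btla. Their Pearson r lay between 0.941 and 0.970 and their Spearman rho between 0.709 and 0.888. H2-Ob encodes a chain of the MHC class II chaperone H2-O of B cells, Fcmr the receptor for the constant part of IgM, and Pax5 the transcription factor that holds B cell identity. Without MF mouse 11 and C mouse 9, H2-Ob (r = 0.915), Btla (0.870) and Fcmr (0.865) were the 3 highest of all 13985 genes ranked, and Cacna1e had the lowest r of the 10 (0.600). Of the 50 genes with the highest r over 27 mice, 23 were also among the 50 highest over 25.

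The other genes of the B lineage were mostly below the threshold too. Of 19 tested receptor partners, surface receptors and signalling genes, 1 was called higher in MF than in CR (median 0.56) and none in CR against C (median -0.58). The called gene was Cd72, an inhibitory receptor of B cells, which rose by 1.34 ± 0.40 (adjusted p = 0.0451) in MF. Its CR values ran from 6.08 to 7.18 and its MF values from 7.13 to 10.37 (MF mouse 11), and leaving out any of 9 of the 12 mice in the comparison ended the call, with an adjusted p of up to 0.123. None of 9 B cell transcription factors (medians 0.58 and -0.42), of 16 immunoglobulin genes (0.61 and -0.24) or of 9 lymphoid attractants and survival factors (0.46 and -0.37) was called in either comparison. Without MF mouse 11 and C mouse 9 the medians of these 3 lists were 0.20 and -0.26, 0.31 and -0.056, and 0.13 and -0.32. Those of the 19 receptor and signalling genes were then 0.29 and -0.47. Igkc, the constant region of kappa light chains, had CR values of 5.83 to 7.40 (median 6.93) and C values of 6.69 to 9.96 (median 8.88), a difference of -2.06 ± 0.57 (adjusted p = 0.0568) that was called without MF mouse 11 and C mouse 9 (-1.92, adjusted p = 0.0474). Immunoglobulin clusters share near-identical segments, so their single values are uncertain. Blnk, the adaptor of the B cell receptor, was lower in CR than in C by 1.02 ± 0.31 (adjusted p = 0.0764), and was called without those mice (-0.94, adjusted p = 0.0216). Irf4, a transcription factor of activated B cells and plasma cells, was lower by 0.72 ± 0.28 (adjusted p = 0.145) and was likewise called without them (-0.54, adjusted p = 0.0436). Because the 2 mice were picked for high B cell signal, calls of B-lineage genes without them are in part set by that choice.

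Of 11 plasma cell genes, 4 passed the test for MF against CR, 1 of them upward and 3 downward (median 0.066), and 3 passed it for CR against C, all upward (median -0.039). The 3 genes were the same in both comparisons: Derl3, a factor of endoplasmic reticulum-associated degradation, Fkbp11, a peptidyl-prolyl isomerase of the secretory pathway, and Txndc5, a protein disulfide isomerase. All 3 act in the folding or quality control of secreted proteins and are not restricted to plasma cells. Derl3 was 7.92 ± 0.95 (SD, n = 5) in CR, 6.14 ± 0.37 (n = 8) in C mice. In the CR-MF diet group it was 6.84 ± 0.51 (n = 7), and the MF diet group had 6.32 ± 0.35 (n = 7). It fell by 1.60 ± 0.30 (SE, adjusted p = 0.00383) in MF against CR and rose by 1.78 ± 0.29 (adjusted p = 0.00288) in CR against C, and no single mouse ended either call, while on plate G150 alone the first was lost (-1.35, adjusted p = 0.0640). In MF mouse 11 its level was 6.73, within 0.12 of the next MF mouse, whereas Jchain and Mzb1 were more than 2 units above theirs. Fkbp11 fell by 0.48 ± 0.11 in MF against CR (adjusted p = 0.0124) and Txndc5 by 0.28 ± 0.07 (adjusted p = 0.0207). In CR against C they rose by 0.41 ± 0.11 (adjusted p = 0.0462) and 0.28 ± 0.07 (adjusted p = 0.0321), and leaving out any of 11 and of 6 of the 13 mice ended these calls. Leaving out CR mouse 1, 3 or 13 also ended the MF to CR call of Txndc5, as did a fit of the compared groups alone (adjusted p = 0.0546). On plate G150 alone neither gene was called in MF against CR (adjusted p = 0.0524 for Fkbp11 and 0.187 for Txndc5) or in CR against C (adjusted p = 0.0750 and 0.181). Tent5c, a poly(A) polymerase that stabilises immunoglobulin mRNA, rose by 0.75 ± 0.22 in MF against CR (adjusted p = 0.0425), a call that ended without any of 9 of the 12 mice (adjusted p of up to 0.124). Of 4 germinal centre genes S1pr2, a sphingosine-1-phosphate receptor that holds B cells in germinal centres and is present in other cells too, rose by 0.43 ± 0.09 in MF against CR (adjusted p = 0.00728). It fell by 0.38 ± 0.08 in CR against C (adjusted p = 0.0262). That call ended without CR mouse 1 or 3, with an adjusted p of up to 0.0943. It also ended after quantile normalization, after median centring and on plate G150 alone (adjusted p-values of 0.0511 to 0.0643).

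Markers of other leukocytes lay in the same direction as the B cell genes. The mean level of 7 leukocyte markers ran from 7.11 to 7.46 in CR, 7.26 to 8.86 in C, 7.15 to 9.03 in CR-MF and 7.57 to 9.67 in MF mice, and none of the 7 was called (medians 0.84 for MF minus CR and -0.87 for CR minus C). Of 7 MHC class II genes, whose mean level ran from 7.48 to 7.86 in CR and 7.63 to 9.81 in C mice, H2-Aa fell by 1.62 ± 0.42 in CR against C (adjusted p = 0.0484, a call that ended without any of 10 of the 13 mice, with an adjusted p of up to 0.113), and the list had medians of 1.14 and -1.53. T cell markers (0.38 and -0.59), NK and cytotoxic cell markers (0.44 and -0.39), Kupffer cell markers (0.32 and -0.70), recruited macrophage markers (0.93 and -1.10), dendritic cell markers (0.21 and -0.26), plasmacytoid dendritic cell markers (0.29 and -0.17), neutrophil markers (0.83 and -0.18) and erythroid and platelet markers (1.06 and -0.27) had the same signs, and pancreas acinar (-0.049 and 0.061) and hepatocyte markers (0.0014 and -0.015) lay near 0. Calls in these lists were Themis, a T cell signalling gene (1.85 and -1.25, adjusted p = 0.000685 and 0.0216), the macrophage genes Trem2 (1.41 and -1.63, adjusted p = 0.0389 and 0.0311), Ccr2 (0.98 and -1.10, adjusted p = 0.0370 and 0.0326) and Gpnmb (1.57 for MF minus CR, adjusted p = 0.0370), Ly6d (2.23 and -1.85, adjusted p = 0.0116 and 0.0478), Tcf4 (0.33 for MF minus CR, adjusted p = 0.0459) and the hepatocyte enzyme Cps1 (-0.29 for MF minus CR, adjusted p = 0.0287). In CR-MF minus MF, Themis (-1.04, adjusted p = 0.0344) and the macrophage gene Cd9 (-0.76, adjusted p = 0.0327) were called too. Leaving out any of 8 and of 7 of the 14 mice ended these 2 calls. Of all these calls, the MF to CR calls of Themis and Ly6d were the ones that no single mouse ended. That of Ly6d was lost on plate G150 alone (adjusted p = 0.0933). In MF mouse 11 Themis deviated by -0.30, the lowest of the T cell markers, and Ly6d had its highest MF value in MF mouse 9. High leukocyte signal went with high values of some B cell lists and not of others. In CR-MF mouse 11 the mean of the leukocyte markers was 9.03 and that of the T cell markers 6.76, the highest of its group. Its mean deviation over the 9 members, Tnfrsf17 included, was -0.17 on the log2 scale, against 0.27 in CR-MF mouse 15. Its mean over the 19 receptor partners, surface receptors and signalling genes, 6.11, was the highest of the CR-MF mice. The means of the B cell transcription factors and of the immunoglobulin genes were highest in CR-MF mouse 15 (6.14 and 6.58). The part of these cells in the values of the members was not tested.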

How the data were processed

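The members and the gene lists were chosen with earlier results of these data known. The authors hybridised liver RNA to Affymetrix Mouse Gene 1.1 ST arrays and deposited log2 values after robust multiarray averaging (RMA, in the MADMAX pipeline); RMA puts all arrays on 1 distribution, which can shrink differences of low genes. The deposited matrix holds 35556 transcript clusters, of which 21218 carry 1 gene symbol, 1881 several and 12457 none here. For each gene the single-symbol cluster with the highest mean was kept (18820 genes, 18790 matched by gene ID). Genes above intensity 20 on at least 5 arrays with an interquartile range above 0.1 were tested (13993). From these log2 values, limma 3.58.1 in R 4.3.3 fitted the 4 diet groups over all 27 arrays and an intensity trend, leaving 23 degrees of freedom for the residual, and p-values were adjusted by Benjamini-Hochberg over all tested genes. A call is an adjusted p under 0.05. The fit was tested on simulated data. Array precision is limited by the number of mice, and a log2 value near the intensity minimum holds little signal.

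Named genes are the 9 members, the called genes of the other lists (up to 4 per list and comparison) and the 10 genes most correlated with the mean of the members. Blnk, Irf4 and Igkc were named after their values were seen. Alternatives were other scalings, filters, moderation, array weights, the 2 groups alone, plates, a block on animal number and each mouse left out. The 2 highest mice were left out together as a setting added after the data were seen. Promoters came from RefSeq, and motifs were searched as plain letters.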

Additional observations from a re-analysis of the deposited data

Results flagged for a closer look

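Of 40 sets of values examined (the 9 members and their mean deviation, in 4 groups), 11 held an outlying mouse. Its gap to the nearest other mouse, as a share of the whole range of the group, was past the 95% critical value of Dixon's test. Chance alone passes that value in about 1 in 20 groups. MF mouse 11 accounted for 9 of them. The share was 0.942 for Cd22, 0.925 for Pou2af1, 0.893 for Mzb1, 0.875 for Ms4a1, 0.852 for Cd79a, 0.820 for Blk, 0.752 for Jchain and 0.749 for Cd79b. It was 0.907 for the mean deviation over the 9 members, Tnfrsf17 included. The members vary together in this mouse, so these are not 9 independent signals. C mouse 9 was past the value at Mzb1 (0.574), where it was at 6.66 and the next C mouse at 5.62. CR mouse 5 was past it in the mean deviation over the members (0.794), at -0.13 against -0.43 in the next CR mouse, a gap small beside those of MF mouse 11 (2.82 against -0.10) and C mouse 9 (1.59 against 0.58).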

How the results depend on the processing

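In none of the 6 comparisons was a member called under the other scalings, filters, moderations, plates and single mice left out, with 1 exception. With array weights 1 member, Cd79b, was called in CR minus C (-1.42, adjusted p = 0.0449), beside 1077 of all tested genes. Some differences changed sign, among them differences of -0.36 to -0.55 in CR-MF minus MF. Leaving out MF mouse 11 and C mouse 9 gave Mzb1 -0.091 in MF minus CR, Cd79a 0.044, Cd79b 0.15, Blk 0.068, Pou2af1 0.030 and Mzb1 0.0066 in CR-MF minus MF, Mzb1 0.18 in CR minus C, Cd22 -0.25, Blk -0.14 and Jchain -0.011 in MF minus C, and Pou2af1 0.044 and Mzb1 0.092 in CR-MF minus C. Plate G150 alone gave Mzb1 0.045 in CR-MF minus CR and 0.071 in CR minus C, Cd79a 0.21, Cd79b 0.049 and Ms4a1 0.43 in MF minus C, and Pou2af1 0.075 and Mzb1 0.12 in CR-MF minus C. In CR minus C, Mzb1 was 0.047 after quantile normalization, 0.087 after median centring and 0.033 with array weights. In MF minus C, Jchain was -0.0043 after quantile normalization, -0.025 after median centring, -0.028 with array weights and -0.0011 with a plate term, and array weights gave Cd22 -0.15 and Blk -0.036. The cause was not tested.

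With 1 mouse left out at a time, 20 differences changed sign. In MF minus CR the ranges were -0.091 to 0.37 for Mzb1 and -0.44 to 0.020 for Jchain, and in CR-MF minus CR -0.070 to 0.20 for Jchain. In CR-MF minus MF they were -0.68 to 0.044 for Cd79a, -0.53 to 0.15 for Cd79b, -0.48 to 0.068 for Blk, -0.68 to 0.030 for Pou2af1 and -0.45 to 0.0066 for Mzb1, each with its highest value without MF mouse 11. In CR minus C they were -0.082 to 0.18 for Mzb1 and -0.078 to 0.43 for Jchain. In MF minus C they were -0.44 to 0.24 for Cd22, -0.74 to 0.089 for Cd79a, -0.66 to 0.25 for Ms4a1, -0.27 to 0.29 for Blk, -0.18 to 0.59 for Pou2af1, -0.10 to 0.45 for Mzb1 and -0.35 to 0.34 for Jchain, from the fit without MF mouse 11 to that without C mouse 9. In CR-MF minus C they were -0.25 to 0.044 for Pou2af1, -0.17 to 0.092 for Mzb1 and -0.020 to 0.48 for Jchain.

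Animal numbers recur between diet groups. Of 27 same-number pairs, 13 had a correlation of deviations over 0.1, and 3 of 24 mice correlated best with their own number. The median was 0.0942 for same-number pairs and -0.0235 for other pairs between groups. Random pairings were not drawn, so these values do not decide whether the numbers pair the mice. With animal number as a replicate block 0 members were called in every comparison, all-gene calls in CR minus C moved from 220 to 354, Mzb1 in CR minus C was 0.0023 and Jchain in MF minus C -0.051. Median centring moved the median of all tested genes in MF minus CR from -0.0068 to -0.13 and calls from 758 (392 higher, 366 lower) to 1814 (260 higher, 1554 lower), and in CR minus C from 220 (113 lower) to 658 (148 lower). Other all-gene counts that moved by over 1.5 times were, in MF minus CR, 457 with the compared groups alone, 67 on plate G150 and 496 without the 2 high mice. In CR minus C they were 1077 with array weights, over 1.5 times more with the compared groups alone and 52 on G150. CR-MF minus CR had 84 calls, and 209 with array weights, 53 after median centring, 9 with the compared groups alone and 8 on G150. CR-MF minus MF had 202, and 515 with array weights and over 1.5 times fewer with the compared groups alone and on G150. CR-MF minus C had 42, and 290 with array weights and 69 with the block. With 1 mouse left out these counts ran from 257 to 1174, 42 to 569, 21 to 137, 91 to 423 and 21 to 111 in the same order. Levels near the intensity minimum (Blk, Ms4a1 in CR, Tnfrsf17) limit what can be seen there.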

Other observations

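The genes that set the 2 high mice apart differed. In MF mouse 11 the 25 largest gaps to the next MF mouse were led by B-lineage genes, and also held Pla2g2d (3.58), a secreted phospholipase, H2-Eb2 (3.25), H2-Oa (2.98), Il9r (2.85) and Klrb1b (2.49). In C mouse 9 the largest gaps to the next C mouse were those of Clec4e (2.75), a C-type lectin of myeloid cells, Lyz1 (2.45), Igdcc4 (2.38), Sult3a1 (2.24), Dapl1 (2.23) and Gpnmb (2.20), with Jchain (1.74) and Pla2g2d (1.73) in places 10 and 11 and Ms4a1 (1.36) in place 18. Igkv8-19, a kappa variable segment, was 1.27 above the next C mouse in C mouse 9, and in MF mouse 11, at a deviation of -0.23, it was the lowest immunoglobulin gene against the other mice. These genes were picked by their values, so they are descriptions of 2 livers.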
